A study of Mus musculus with 8 samples.

Results

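Proteins that liver cells secrete or place in membranes fold inside the endoplasmic reticulum (ER), where disulfide isomerases form and rearrange disulfide bonds and chaperones hold unfinished chains. When unfolded protein builds up there, the sensors Ire1, Perk and Atf6 start the unfolded protein response, which raises the transcription of many of these chaperones through the factors Xbp1, Atf4 and Atf6. Hepatocytes carry a large ER because they make most plasma proteins. The genes described here are 10 members of this machinery: the disulfide isomerases P4hb, Pdia3, Pdia4 and Pdia6, the sulfhydryl oxidase Qsox1, the Hsp70 chaperone Hspa5 (BiP), its J-protein partner Dnajb9, the Hsp90 chaperone Hsp90b1, and the lectin chaperones Calr and Canx. They were taken by name, and every probe set that the platform annotation pairs with exactly one of them was used. That gave 21 probe sets of 20380 with a single gene, for 10 genes of 12393 on the array.

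Livers came from female mice aged 4 weeks on a C57BL/6J background, 4 wild-type (WT) and 4 labelled TrxR1/Gsr-null, with 1 Affymetrix array per animal and all livers taken in the late morning. Txnrd1 encodes TrxR1, which keeps cytosolic thioredoxin reduced, and Gsr encodes the reductase that does the same for glutathione. The labels name neither the alleles nor the cell type in which they were deleted, and say of each array only that it is a biological replicate. Values are log2 expression, and a difference is the mean of the null livers minus the mean of the WT livers. A gene was called when its Benjamini-Hochberg adjusted p from limma, a linear model fitted across all genes, was below 0.05. In whole liver RNA, fewer cells of a type and less RNA per cell cannot be told apart.

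Both Gsr probe sets were lower in the null livers (2.24- and 2.23-fold), while Txnrd1 was 4.31-fold higher at the single probe set above background, which checks no label because the deleted part is not stated. Hepatocyte markers were bright on every array, with a mean log2 value of 12.86 to 13.10 in WT and 12.24 to 12.73 in null livers over 7 genes, none called. WT replicates 3 and 4 stood apart by narrower distributions, at an interquartile range of 3.97 and 3.74 in log2 values where the remaining 6 arrays had 4.31 to 4.44. WT replicate 4 was also the lowest of the 8 arrays for 5 of the 10 members (Pdia3, Pdia4, Hspa5, Canx and Dnajb9). Control probe sets read the 3′ and 5′ ends of beta-actin and Gapdh. For beta-actin, 3′ minus 5′ was 1.498 and 1.572 in WT replicates 3 and 4 and 1.756 in TrxR1/Gsr-null replicate 3. The remaining arrays had 1.013 to 1.167. For Gapdh it was -0.702 in TrxR1/Gsr-null replicate 4 and -0.445 to -0.233 in the remaining arrays. The effect of these control values on the genotype differences was not tested.

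Many chaperone genes carry the ER stress response element (ERSE), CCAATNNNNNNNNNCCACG, to which the general factor NF-Y and the stress factors Atf6 and Xbp1 bind. RefSeq promoter windows (GRCm38.p6, 250 bases before to 50 after the annotated start) were found for all 10 members and searched on both strands. An exact ERSE match lay in 5 of them, those of Pdia6, Hspa5, Hsp90b1, Calr and Canx, with 2 matches in Hsp90b1, against 0.137% of all 27025 genes in the table. The element was first described in promoters of this kind, so its presence in them is background and not a result. The matches are printed 5′ to 3′ on the strand of the gene with 20 bases on either side, and capitals mark the CCAAT and CCACG ends, or their complements ATTGG and CGTGG where the match lies on the opposite strand.
Pdia6 (chr12:17266471-17266529, plus strand): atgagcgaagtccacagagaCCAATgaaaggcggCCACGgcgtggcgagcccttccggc
Hspa5 (chr2:34772005-34772063, plus strand): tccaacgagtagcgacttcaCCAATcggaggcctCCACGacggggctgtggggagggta
Hsp90b1 (chr10:86705618-86705676, minus strand): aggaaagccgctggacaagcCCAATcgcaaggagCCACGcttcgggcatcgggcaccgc
Hsp90b1 (chr10:86705513-86705571, minus strand): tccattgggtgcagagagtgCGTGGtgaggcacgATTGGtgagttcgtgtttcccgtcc
Calr (chr8:84847055-84847113, minus strand): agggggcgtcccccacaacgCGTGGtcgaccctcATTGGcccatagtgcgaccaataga
Canx (chr11:50325780-50325838, minus strand): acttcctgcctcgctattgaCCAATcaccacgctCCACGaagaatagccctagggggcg

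The promoter windows of P4hb, Pdia3, Pdia4, Dnajb9 and Qsox1 held no exact ERSE. The shorter CCACG end alone, present in 35.5% of genes, lay in 8 of the 10 windows, all but those of Pdia3 and Qsox1. Dnajb9 is shown over the 150 bases before its start because it was the one member whose transcript rose, and capitals mark its CCACG matches.
Dnajb9 (chr12:44210069-44210218, minus strand): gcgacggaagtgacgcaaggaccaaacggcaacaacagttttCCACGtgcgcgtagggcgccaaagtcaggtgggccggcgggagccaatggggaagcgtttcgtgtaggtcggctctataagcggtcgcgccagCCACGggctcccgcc

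In the null livers 1 of the 10 genes rose and 1 fell. Dnajb9, which helps BiP bind its clients and is a target of Xbp1, rose 1.93-fold. Qsox1, an oxidase of the Golgi and of secreted fluids that makes disulfide bonds with oxygen, fell by 0.67 on the log2 scale. Neither the disulfide isomerases nor the abundant chaperones Hspa5, Hsp90b1, Calr and Canx passed the test. Over all 7534 genes tested 4.47% were called higher and 2.15% lower, and 6.62% in either direction, so the members' count is given as a description. That is 337 genes higher and 162 lower, against 314 and 272 after quantile normalization and 285 and 289 with arrays centred on their median. The median log2 difference of the 10 was -0.07 against 0.10 over all genes, and 4 of the 10 differences were positive and 6 negative against 60.1% and 39.9% of all genes. These shares were counted on the deposited values with genes of low values left out. The median over all genes was -0.01 after quantile normalization, -0.003 with genes of low values kept in and -0.07 with centred arrays. Only Dnajb9 and Qsox1 of the 10 had groups that did not overlap, against 16.6% of genes (10.7% higher and 5.84% lower).

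**Figure D1:**
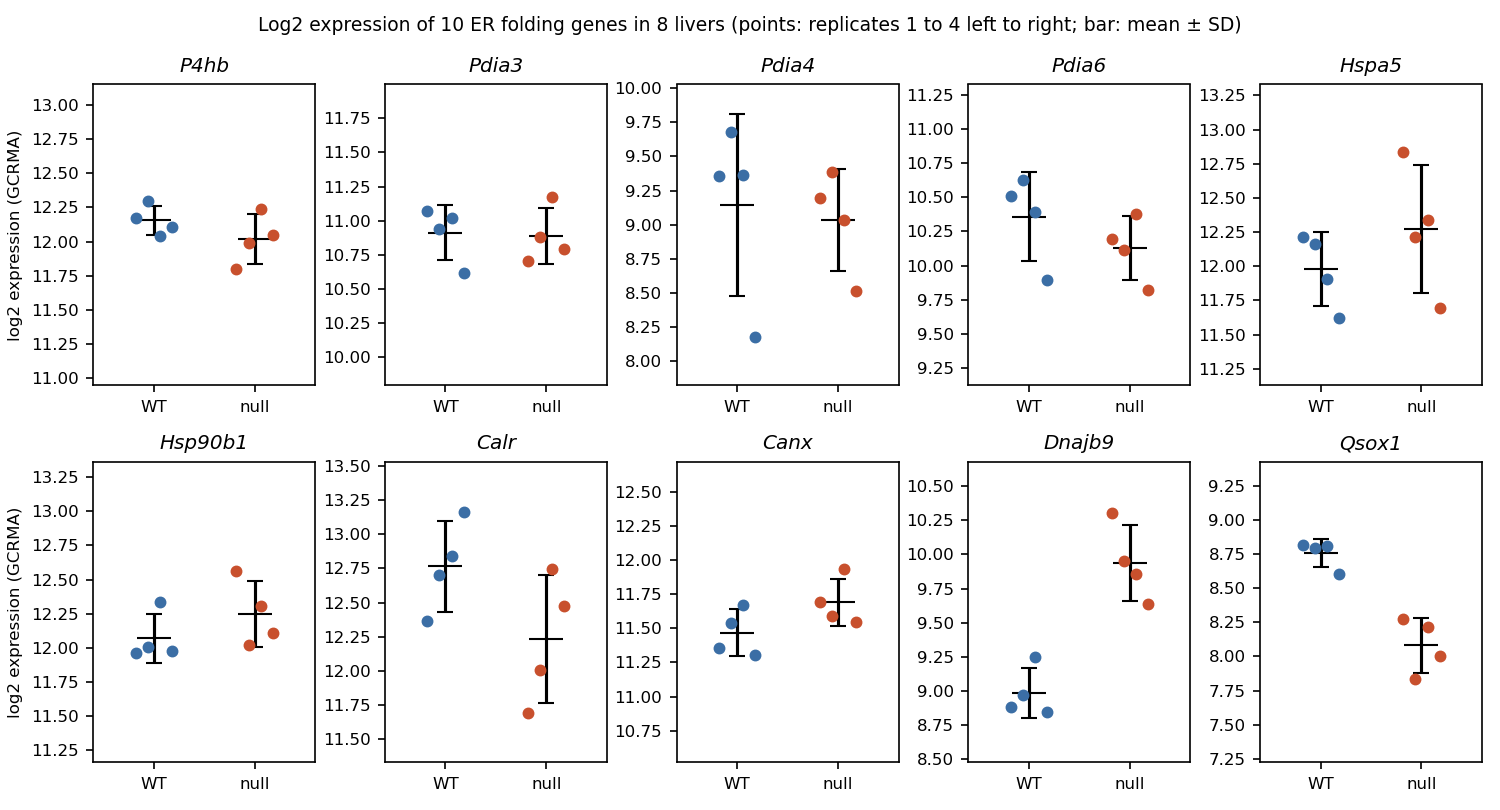
Log2 expression of each of the 10 genes at its chosen probe set in 4 WT (blue) and 4 TrxR1/Gsr-null (red) livers. Points are livers, ordered by replicate number, and bars give the mean ± SD; each panel spans the same number of log2 units around its own centre. The groups of Dnajb9 and Qsox1 do not overlap, and those of the other 8 genes do.

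P4hb is the classical protein disulfide isomerase and also a subunit of prolyl 4-hydroxylase. Its WT values were 12.17, 12.30, 12.04 and 12.11 and its null values 11.80, 11.99, 12.24 and 12.05, in the order of replicates 1 to 4. The groups overlapped, and the difference of -0.14 on the log2 scale had a 95% interval from -0.51 to 0.24 (adjusted p = 0.691 in limma). P4hb also varied little, with a root mean square deviation of 0.15 log2 units about its own mean, which was more than only 3.93% of the genes tested.

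Pdia3, Pdia4 and Pdia6 did not pass the test either. Pdia3 (ERp57), which works on glycoproteins held by calnexin and calreticulin, averaged 10.91 ± 0.20 in WT and 10.89 ± 0.20 (SD, n = 4 each) in null livers, with an interval of the difference from -0.43 to 0.39. Pdia6, an isomerase that acts with BiP, averaged 10.36 ± 0.32 and 10.13 ± 0.23, with an interval from -0.70 to 0.25. Pdia4 (ERp72) spread most of the isomerases, from 8.18 in WT replicate 4 to 9.68 in WT replicate 2. Its null values, 9.20, 9.38, 9.04 and 8.52, lay inside that range, and its interval ran from -0.84 to 0.62. All 4 isomerases had negative differences, but those of P4hb, Pdia3 and Pdia4 turned positive within replicates 3 and 4 (0.07, 0.16 and 0.0055) and that of Pdia6 with the mean of its probe sets (0.10). A 2-fold change of any isomerase lies outside its interval, which does not show that its level was the same. The second probe sets of Pdia4 and Pdia6 stayed at log2 values of at most 3.04, near background, and were not tested.

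Qsox1 was lower in every null liver than in any WT liver at its main probe set. WT replicates 1 to 4 read 8.82, 8.79, 8.81 and 8.61, and null replicates 1 to 4 read 8.27, 7.83, 8.22 and 8.01. WT replicate 4 lay below the other 3 WT livers and still above the highest null liver. The log2 difference was -0.67 ± 0.17 (SE), with a 95% interval from -1.06 to -0.29 and an adjusted p of 0.0445 in limma over all genes. That call stood just inside the threshold. It was lost without any one of the 8 arrays (adjusted p from 0.0512 without WT replicate 4 to 0.143 without TrxR1/Gsr-null replicate 2), although the difference kept its sign in each, between -0.74 and -0.59. Fitted over 13776 probe sets in place of genes, where 3.85% were called higher, 1.64% lower and 5.5% in either direction, the same probe set had an adjusted p of 0.0506. A second Qsox1 probe set averaged 7.83 ± 0.50 in WT and 6.94 ± 0.76 (SD, n = 4 each) in null livers, a difference of -0.89 whose groups overlapped (adjusted p = 0.21). Its lowest null value was 5.96 in replicate 2 and its highest WT value 8.55 in replicate 3. The other 2 Qsox1 probe sets read at most 1.78 and were not tested; the mean of all 4 gave a difference of -0.39 that was not called (adjusted p = 0.213).

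Markers of liver cell types, set beside Qsox1, had mostly negative differences as well, and no marker of the next 4 lists was called. Of 8 Kupffer cell markers 6 had negative differences, and the mean of the list ran from 8.28 to 8.98 in WT and from 7.97 to 8.55 in null livers. For 7 endothelial markers 6 differences were negative (means 7.46 to 7.81 and 7.16 to 7.54), as were all 6 for stellate cells (8.15 to 8.65 and 7.93 to 8.51) and all 7 for hepatocytes. Among the stellate cell markers Col1a1 (-0.02) and Rgs5 (-0.0013) hardly differed. Over all genes 39.9% of differences were negative. Of the bile duct markers Krt19, Krt7 and Cldn4 stayed below the limit for low values, 3.38. Epcam was called higher, at a log2 value of 2.93 in WT and 3.87 in null livers. Its WT values, 2.51 to 3.31, all lay below that limit, so it was tested only because of its null values. Sox9 had a difference of -0.19 and was not called (adjusted p = 0.743 in limma). Of the plasma cell markers Jchain, Ighm and Tnfrsf17 stayed below that limit and Sdc1, which hepatocytes also express, was not called. The T and B cell markers above it, Ptprc and Cd79b, had positive differences (0.27 and 0.0043) and were not called. The part of cell composition in the difference of Qsox1 was not tested.

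Hspa5, the ER Hsp70 that binds unfolded chains and holds the stress sensors inactive, was not called at either of its probe sets. At the brighter one WT replicates 1 to 4 read 12.21, 12.16, 11.91 and 11.62, and null replicates read 12.84, 12.22, 12.34 and 11.69. TrxR1/Gsr-null replicate 1 was the highest array and WT replicate 4 the lowest, and the groups overlapped. The difference of 0.29 had an interval from -0.27 to 0.86 (adjusted p = 0.536 in limma). The second probe set averaged 10.75 ± 0.57 in WT and 11.38 ± 0.58 (SD, n = 4 each) in null livers, a difference of 0.63 with an interval from -0.14 to 1.40 (adjusted p = 0.341). Here too the top value, 12.19, was in null replicate 1 and the bottom value, 9.90, in WT replicate 4. The ERSE shown above lies 65 to 47 bases before the Hspa5 start.

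Dnajb9 (ERdj4) stimulates the ATPase of BiP and attaches it to the sensor Ire1. WT livers read 8.88, 8.97, 9.25 and 8.85 and null livers 10.31, 9.95, 9.85 and 9.64, so the lowest null liver stood above the highest WT liver. The log2 difference was 0.95 ± 0.20 (SE), with a 95% interval from 0.51 to 1.38 and an adjusted p of 0.0187 in limma. It remained called with 6 of 8 arrays left out in turn, and was not called without TrxR1/Gsr-null replicate 1 (difference 0.83, adjusted p = 0.0527) or replicate 2 of that group (0.94, adjusted p = 0.0595). Within replicates 1 and 2 it was 1.20 and called (adjusted p = 0.0229), and within replicates 3 and 4 it was 0.70 and not called (adjusted p = 0.206). With each array centred on its median it was 0.78 with an adjusted p of 0.0583, while the median over all genes went from 0.10 to -0.07. Without WT replicates 3 and 4 it was 1.01 and called (adjusted p = 0.0448). The array holds 1 Dnajb9 probe set, so no second one could be compared.

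Within an array a difference between a pair of genes is not moved by a constant added to the whole array, but a change of its spread can move it. Dnajb9 minus Hspa5 averaged -2.99 ± 0.32 in WT and -2.33 ± 0.22 (SD, n = 4 each) in null livers and did not overlap, a shift of 0.66 toward the J-protein. In WT livers it was -3.33 and -3.19 in replicates 1 and 2. It was -2.66 and -2.77 in WT replicates 3 and 4, whose distributions were narrower. Hspa5 minus P4hb averaged -0.18 ± 0.22 and 0.25 ± 0.58 (SD, n = 4 each), and its groups overlapped. These pairs and that of Canx and Calr below were chosen after their values were seen and were not tested, and the groups did not overlap for 2 of the 3.

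Hsp90b1 (Grp94), the ER Hsp90 that folds integrins and Toll-like receptors, averaged 12.07 ± 0.18 in WT and 12.25 ± 0.24 (SD, n = 4 each) in null livers at its brighter probe set. Its interval ran from -0.24 to 0.60 (adjusted p = 0.624 in limma). The second probe set gave a difference of 0.09, with WT replicate 4 at 10.71 and the other 7 arrays between 11.34 and 11.82.

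The lectin chaperones Calr and Canx bind the same glucosylated glycans, the first as a soluble and the second as a membrane protein, and their differences had opposite signs at all 6 of their probe sets, none of them called. Calr read 12.36, 12.70, 12.84 and 13.16 in WT livers and 11.70, 12.01, 12.74 and 12.48 in null livers. Replicates 1 and 2 were lower than replicates 3 and 4 in both genotypes. The difference was -0.54 with an interval from -1.13 to 0.06 (adjusted p = 0.266 in limma), and the other 2 Calr probe sets gave -0.42 and -0.33. Given the genotype, replicates 3 and 4 were 0.61 ± 0.17 (SE) above replicates 1 and 2 for Calr (adjusted p = 0.0523), in a comparison that called 10.6% of genes.

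Canx read 11.36, 11.54, 11.67 and 11.30 in WT livers and 11.69, 11.59, 11.93 and 11.54 in null livers at its brightest probe set, a difference of 0.22 with an interval from -0.17 to 0.61 (adjusted p = 0.494). Its second probe set gave 0.43 (adjusted p = 0.291 over probe sets). The dimmest read 6.20, 6.34, 5.56 and 5.10 in WT and 6.62, 6.41, 7.16 and 6.39 in null livers, with no overlap between groups, as at 14.9% of all probe sets tested, and a difference of 0.85 (adjusted p = 0.14). Canx minus Calr within an array, at the brightest probe sets, averaged -1.30 ± 0.38 in WT and -0.54 ± 0.42 (SD, n = 4 each) in null livers, again with no overlap.

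**Figure D2:**
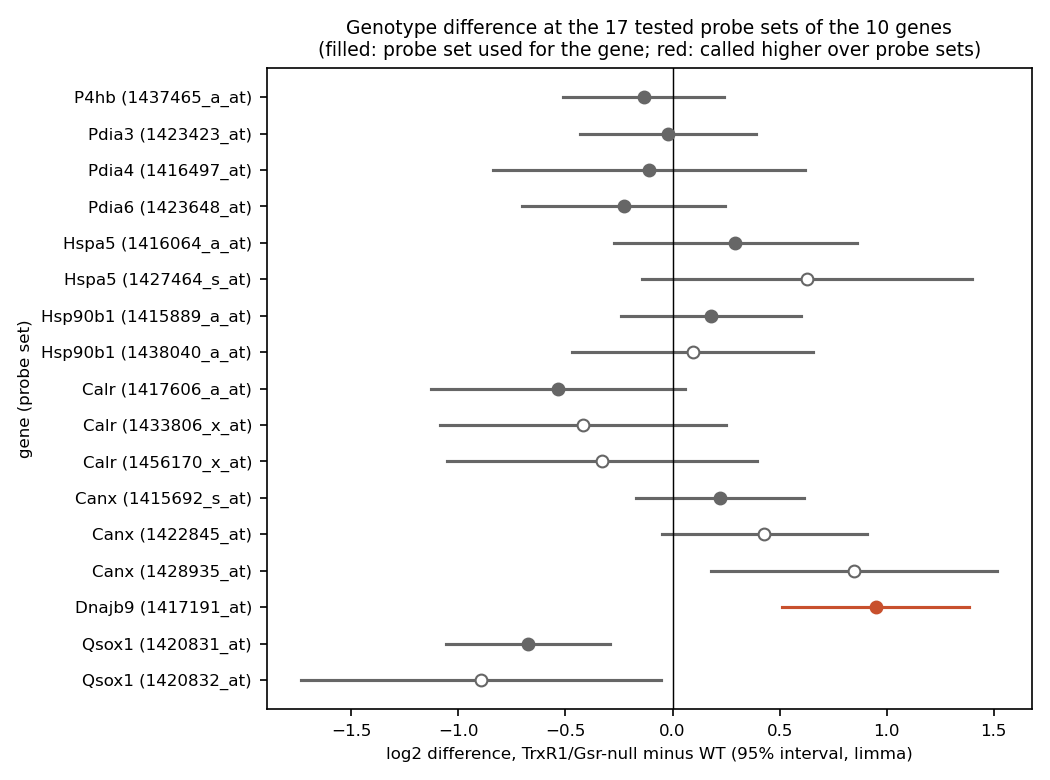
Log2 difference between the genotypes (points) with its 95% interval (lines) at the 17 probe sets of the 10 genes that passed the filter on low values; filled points are the probe sets used for the gene. Dnajb9, in red, is the only probe set called when the fit runs over all probe sets, and the Qsox1 probe sets lie lowest at -0.67 and -0.89.

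The other genes of ER folding were taken as 8 lists. Of their 103 tested genes 3 were called higher and 1 lower, against 4.47% and 2.15% of all genes. Their median difference was 0.07 against 0.10 over all genes, and 64 of the 103 differences were positive, against 60.1% of all genes. With the replicate number as a block 5 were called higher and 2 lower. At an unadjusted limma p below 0.05 there were 17 of 103, against 22.9% of all genes.

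Among the enzymes that feed oxidizing power to the isomerases none of 5 oxidases and peroxidases was called (none at an unadjusted limma p below 0.05), with Ero1a, the main oxidase of P4hb, at 6.58 in WT and 6.96 in null livers and Ero1b at 8.95 and 8.61. With array weights Ero1a was called higher, at a difference of 0.58 in place of 0.38 (adjusted p = 0.0319 in limma). Among 13 other ER proteins with thioredoxin folds or related thiol chemistry 1 was called higher, and with the replicate block 1 was called lower as well. Pdia5, an isomerase that is not one of the members, averaged 8.74 ± 0.60 in WT and 7.83 ± 0.30 (SD, n = 4 each) in null livers. Its difference of -0.91 was the lowest of this list, its groups overlapped and it was not called (adjusted p = 0.1005 in limma). Creld1, an ER membrane protein with EGF-like repeats that has no thioredoxin fold, rose 3.37-fold, from 6.26, 6.31, 6.21 and 5.80 in WT to 7.38, 7.80, 7.91 and 8.52 in null livers (adjusted p = 0.00297 in limma). No WT value came near a null value, and Creld1 remained called in all 21 alternative settings. For the 13 co-chaperones and exchange factors of BiP there was no call and no unadjusted limma p below 0.05, with Dnajb11 at 7.15 and 7.03 and Dnajc1 at 7.63 in WT and 0.37 higher in null livers. In the calnexin cycle and glycan processing none of 17 was called (3 at an unadjusted limma p below 0.05), with the glucosyltransferase Uggt1 at 3.99 and 3.96 and the glucosidase Mogs at 8.16 and 8.02. The 15 genes of translocation into the ER also gave none (1 at an unadjusted limma p below 0.05), with Sec61a1, the channel itself, at 10.32 and 9.98 and Sec61b at 10.94 and 10.92.

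ER-associated degradation, which returns misfolded proteins to the cytosol, held 1 call in each direction among 18 tested genes, and 2 higher and 1 lower with the replicate block. Herpud1, a membrane scaffold of the degradation complex, fell 2.22-fold, from 11.27, 11.06, 10.98 and 10.61 in WT to 9.62, 10.25, 9.48 and 9.98 in null livers (adjusted p = 0.0156 in limma). Its groups did not overlap and its second probe set differed by -1.69 (adjusted p = 0.0532), and it was not called without TrxR1/Gsr-null replicate 1 (adjusted p = 0.051). Herpud1 has no exact ERSE but a second element of the stress response, ERSE-II (ATTGG and CCACG with 1 base between them, in 0.0444% of genes), printed here on the gene's strand with its fixed letters in capitals.
Herpud1 (chr8:94386357-94386407, plus strand): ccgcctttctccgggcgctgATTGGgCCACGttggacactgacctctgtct

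Nploc4, a cofactor of the Vcp segregase, read 7.09, 7.08, 6.69 and 6.65 in WT and 7.68, 7.63, 7.50 and 7.51 in null livers, with no overlap. It rose 1.63-fold (adjusted p = 0.0435 in limma), a call lost without any one array other than WT replicate 1. The Nploc4 call was also lost after quantile normalization (adjusted p = 0.0598 in limma) or median centring (0.0698), and in 13 of 21 alternative settings altogether. Of the 18 differences of the degradation list 15 were positive, against 60.1% of all genes.

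Among 10 sensors and transcription factors of ER stress 1 was called higher. Creb3l2, a factor of the ER membrane released by cleavage, read 4.88, 5.06, 4.69 and 4.75 in WT and 5.56, 5.62, 6.04 and 5.48 in null livers at its brighter probe set. The groups did not overlap and it rose 1.78-fold (adjusted p = 0.0282 in limma), while its second probe set differed by -0.25 and was not called (adjusted p = 0.581). The Creb3l2 call was lost with the mean of both (adjusted p = 0.279), after quantile normalization (0.0668) or median centring (0.0613), without either of WT replicates 3 and 4 and without null replicate 1, 2 or 3. Total Xbp1 transcript, which this array does not split into its spliced and unspliced forms, was 11.59 and 11.62 in WT and null livers.

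In the Perk branch none of 12 genes was called (3 at an unadjusted limma p below 0.05), and 1 was called higher with the replicate block. TrxR1/Gsr-null replicate 4 stood apart for this list: it was the highest of the 8 arrays for 10 of the 12 genes, with a list mean of 6.72 against 5.29 to 5.46 in the other null livers and 4.96 to 5.44 in WT livers. The median difference was 0.67, and 0.30 without that array, against 0.10 over all genes either way. Atf4, the factor whose translation Perk raises, averaged 9.16 in WT and 8.85 in null livers. Ddit3 (CHOP) read 4.11, 4.46, 3.82 and 6.00 in null livers against a WT mean of 3.90, a difference of 0.70 that was 0.23 without null replicate 4. Ddit4 came nearest to a call, at 2.98 in WT and 4.04 in null livers (difference 1.06, adjusted p = 0.0569 in limma). Its WT mean lay below the limit for low values, 3.38, so it passed that filter through its null values. Atf3 did as well, since its WT values, 2.55 to 3.23, all lay below that limit. The Atf3 difference, 1.42, was the largest of the list. Both genes count in the list median and among the 10 that were highest in null replicate 4. Asns, Ppp1r15a, Nupr1, Chac1, Sesn2 and Ddit3 had WT means of 3.47 to 3.90, not far above the limit.

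**Figure D3:**
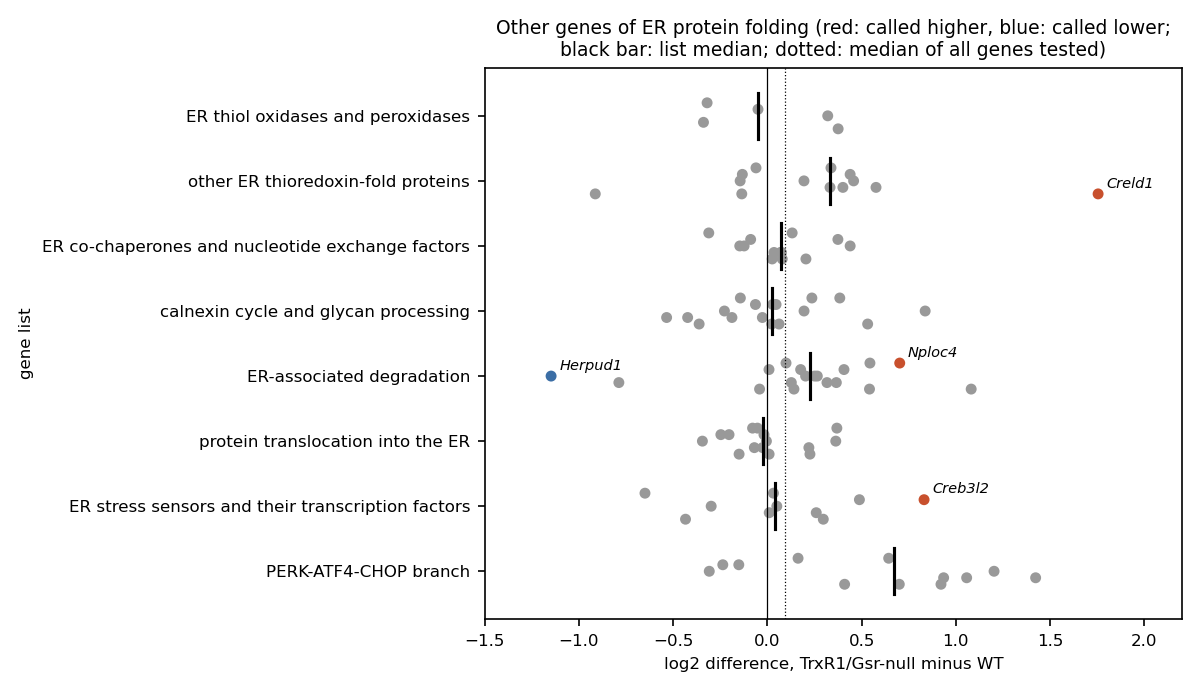
Log2 differences between the genotypes for 103 tested genes on 8 lists of ER protein folding, 1 point per gene, with list medians as black bars. Creld1, Nploc4 and Creb3l2 (red) were called higher and Herpud1 (blue) lower; the dotted line is the median of all 7534 genes, 0.10.

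The ERSE gives a grouping of genes that does not use their expression. Of 37 genes with an exact match in the window, 14 were tested, the 5 members among them. Spats2l was called higher, with a difference of 0.88 from a WT mean of 3.86 (adjusted p = 0.0141 in limma). None was called lower, and over all genes 4.47% were called higher and 2.15% lower. The 14 differences ran from -0.60 to 1.33, with a median of 0.15 against 0.10 over all genes. Of the 14, 9 were positive, against 60.1% of all genes. Creld2, Derl3, Dnajc3, Syvn1 and Ero1b, the other ER genes among them, were not called, with differences of 0.58, 0.25, 0.13, 0.01 and -0.34. An antioxidant response element core, TGACNNNGC, which Nrf2 binds, lay in the windows of Pdia3 and Calr and in 14.0% of genes. The core TGACGTG, bound by Xbp1 and Atf6, lay in that of Hspa5 and in 2.22% of genes.

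**Figure D4:**
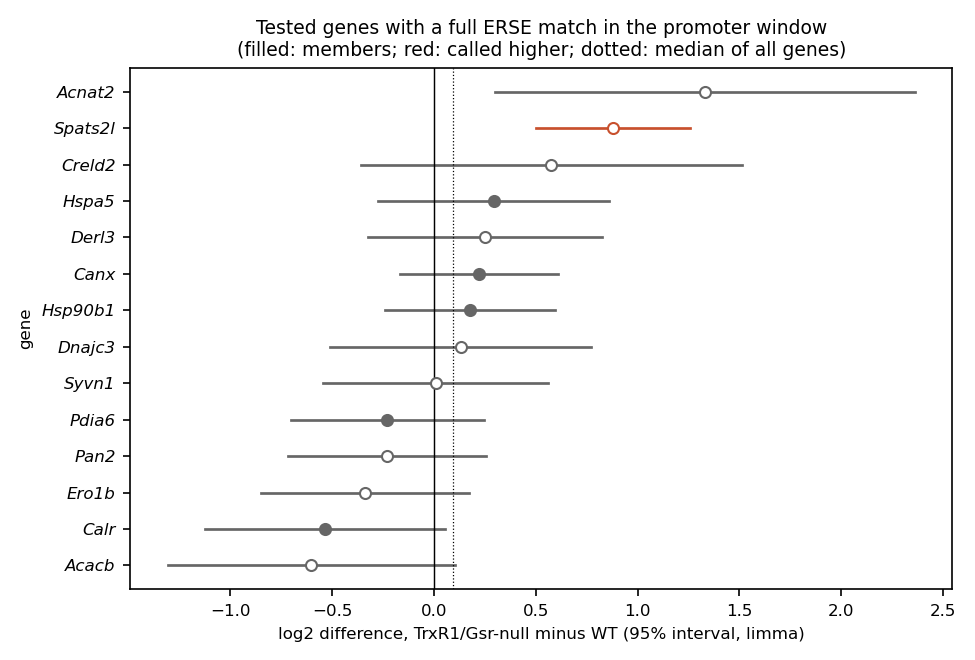
Log2 difference between the genotypes with its 95% interval for the 14 tested genes with an exact ERSE match in the RefSeq promoter window. Filled points are Calr, Pdia6, Hsp90b1, Canx and Hspa5. Spats2l, in red, is the 1 gene called, and 9 of the 14 points lie above 0, against 60.1% of all genes.

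Likeness to Hspa5 was measured as the root mean square difference, over the 8 arrays, between the log2 deviations of both genes from their own means, and a gene with no variation would score 0.36. Hsp90b1 was the closest member at 0.29, ranked 489 of 7533 genes, and Canx followed at 0.31. Calr was the member farthest from it at 0.75, ranked 6788, with its top value in WT replicate 4, where Hspa5 had its lowest. The 3 genes closest to Hspa5 were Ctcf, a chromatin architecture factor (0.11), Armc1 (0.13) and Derl3, a channel component of ER-associated degradation with an ERSE of its own (0.15). None of these was called, and arrays share their scaling, which such likeness also takes in. Derl3 averaged 3.38 in WT and 3.64 in null livers, near the limit for low values of 3.38.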

How the data were processed

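The authors deposited log2 expression values, 1 for every probe set on each array, computed with GCRMA per the submitters' processing notes, which name no version. That they are log2 was inferred from their range, 0.53 to 14.6. Precision is limited by the 4 arrays per group. Symbols came from the platform annotation, updated through RefSeq identifiers. Where a gene had several probe sets, the brightest was used (those ending in _x_at set aside where another existed). A gene was kept if its mean exceeded that of the lowest 40% (limit 3.38) or if 4 or more arrays did, giving 7534 genes, and 13776 of the non-control probe sets by the same rule (limit 3.03). All 10 members and 17 of their 21 probe sets passed. The genotype test was limma (version 3.58.1, R 4.3.3; lmFit, then eBayes; two-sided, Benjamini-Hochberg over all genes), tested on simulated data. Since the labels do not describe litters or batches, p-values measure only the spread between these arrays.

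Same-numbered arrays of the groups deviated together (correlations 0.21 to 0.37), so a fit with the replicate number from the titles as a block is an alternative. The members and lists were chosen with earlier results of these data known. Beyond the 10 members, named genes were up to 4 called genes per list and direction, the first 2 members of a list without a call, Txnrd1, Gsr and the 3 genes most like Hspa5. Others were named after their values were seen: Pdia5, Xbp1, Spats2l, the Perk branch genes other than Atf4 and Ddit3, the cell markers and other ERSE genes. The element searches other than ERSE and CCACG were added then.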

Additional observations from a re-analysis of the deposited data

Results flagged for a closer look

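A total of 3 values lay far from the other 3 livers of their group by Dixon's criterion for 4 samples, among 48 sets of 4 livers examined, where chance gives about 1 in 20. Hsp90b1 read 12.34 in WT replicate 3 against 11.96 to 12.01 in the other WT livers. Qsox1 read 8.61 in WT replicate 4 against 8.79 to 8.82, on the side of the null livers, and without that array its difference was -0.72 (adjusted p = 0.0512 in limma). Dnajb11, a J-protein of BiP, read 7.47 in TrxR1/Gsr-null replicate 3 against 6.85 to 6.90 in the other null livers.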

How the results depend on the processing

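Counts of called genes are given as higher, then lower. All genes (337 and 162) gave 647 and 334 with a block for replicates 1 and 2 against 3 and 4, 162 and 30 within replicates 3 and 4, 314 and 272 after quantile normalization, 285 and 289 with arrays centred on their median, 578 and 428 with array weights and 187 and 138 without both WT replicates 3 and 4. Members (1 and 1) gave 1 and 0 within replicates 1 and 2, with the mean of probe sets and without both WT replicates 3 and 4, 0 and 0 within replicates 3 and 4, and 0 and 1 with arrays centred on their median. Pathway genes (3 and 1) gave 5 and 2 with the replicate block, which changed no call among the members, 5 and 5 with the split block, 1 and 3 within replicates 1 and 2, 1 and 0 within replicates 3 and 4, 5 and 2 with the mean of probe sets, 1 and 3 after quantile normalization, 2 and 2 with centred arrays, 6 and 5 with array weights and 1 and 2 without both WT arrays. With 1 array left out, the counts were 196 to 387 and 75 to 134 for all genes, 0 to 1 and 0 to 0 for members, and 1 to 4 and 0 to 2 for pathway genes. Differences that changed sign, none of them called, were within replicates 3 and 4 those of P4hb (0.068), Pdia3 (0.16), Pdia4 (0.0055), Dnajb11 (0.089), Uggt1 (0.38) and Sec61b (0.090), within replicates 1 and 2 Dnajc1 (-0.17), with the mean of probe sets Pdia6 (0.10) and Ero1b (0.036), and without both WT arrays Dnajc1 (-0.32) and Atf4 (0.014). With 1 array left out, the ranges that crossed 0 were -0.12 to 0.039 for Pdia3, -0.43 to 0.067 for Pdia4, -0.25 to 0.15 for Uggt1 and -0.074 to 0.0070 for Sec61b. Without probe sets ending in _x_at, _s_at or _a_at P4hb, Hspa5, Hsp90b1 and Calr have no value. The cause of these shifts was not tested.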
